A study of Mus musculus with 25 samples.

Results

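Inhibitory receptors are surface proteins that restrain a lymphocyte when they meet their ligand on another cell. The genes described here are the 8 whose symbol in the array's probe table is Pdcd1, Ctla4, Lag3, Tigit, Havcr2, Cd160, Btla or Cd96, out of 19505 genes measured in the series. Each of the 8 is represented by 1 transcript cluster, the array's unit for a gene. They were measured in invariant natural killer T (iNKT) cells, T lymphocytes that recognise lipids on CD1d, sorted from mouse thymus on C57BL/6 background and run on 25 Clariom S arrays.

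The double knockout lacking both Hippo kinases Mst1 and Mst2 (dKOMst) had 2 arrays of stage 1 and 2 cells (S1_S2) and 1 array of stage 3 cells (S3). The single knockout of Mst1 (Mst1KO) had 4 arrays of S1_S2 cells and 5 of S3 cells. The wild type (WT) had 6 arrays of S1_S2 cells and 7 of S3 cells. All cells carried the TCR beta chain, bound CD1d tetramer and lacked CD24, after enrichment of thymocytes with CD8 microbeads. S1 cells lacked CD44 and NK1.1, S2 cells carried CD44 only, and S3 cells carried both. The labels give no age and do not say whether the deletions were germ line or driven by a Cre. Nor do they state that replicate arrays are separate mice, and each p-value reflects variation among these arrays alone, which can be technical in part or in whole.

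These receptors act as brakes in different ways. PD-1, the product of Pdcd1, and BTLA carry cytoplasmic tyrosine motifs that recruit phosphatases, whereas CTLA-4 competes with the costimulatory receptor CD28 for CD80 and CD86. LAG-3 resembles CD4 and binds MHC class II, and TIM-3, the product of Havcr2, binds galectin-9 among other ligands. TIGIT and CD96 compete with the activating receptor CD226 for the poliovirus receptor CD155, and CD160 and BTLA both bind the herpesvirus entry mediator HVEM. Several of these genes are induced in T cells by antigen receptor signals, and CD160 is also carried by natural killer cells.

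The deposited values are log2 RMA intensities, so a difference of 1 is a doubling. Array medians lay between 7.28 and 7.39 and the medians of the negative control probes between 6.19 and 6.59. A cluster above its array's control median on no array of a group has only a bound there, and no difference is given where this holds for both groups. The 9 measured T cell and iNKT markers were above it on all 25 arrays. The running numbers in the titles fall into a first set, with all Mst1KO arrays, and a second set, with all dKOMst arrays, and WT arrays lie in both. This set of title numbers was a term in the limma model, which had 1 mean for each of the 6 groups, and a call is an adjusted p under 0.05 over all 22206 clusters. The bounds, written as at least, compare plain group means without that term and carry no sampling error. Stk4, the gene of Mst1, fell in Mst1KO S1_S2 cells against WT by 0.92 ± 0.16 on the log2 scale (SE, limma adjusted p = 0.0059). The Stk4 difference was -0.35 ± 0.15 in Mst1KO S3 cells (limma adjusted p = 0.15) and -0.74 ± 0.20 in dKOMst S1_S2 cells (limma adjusted p = 0.083), and neither passed. Where its probes lie against the deletion is not stated, and probes outside the deletion check nothing. Signal from 3 Y-linked genes was present on 21 arrays and missing on 4, the Mst1KO replicates 3 and 4 of each stage.

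**Figure D1:**
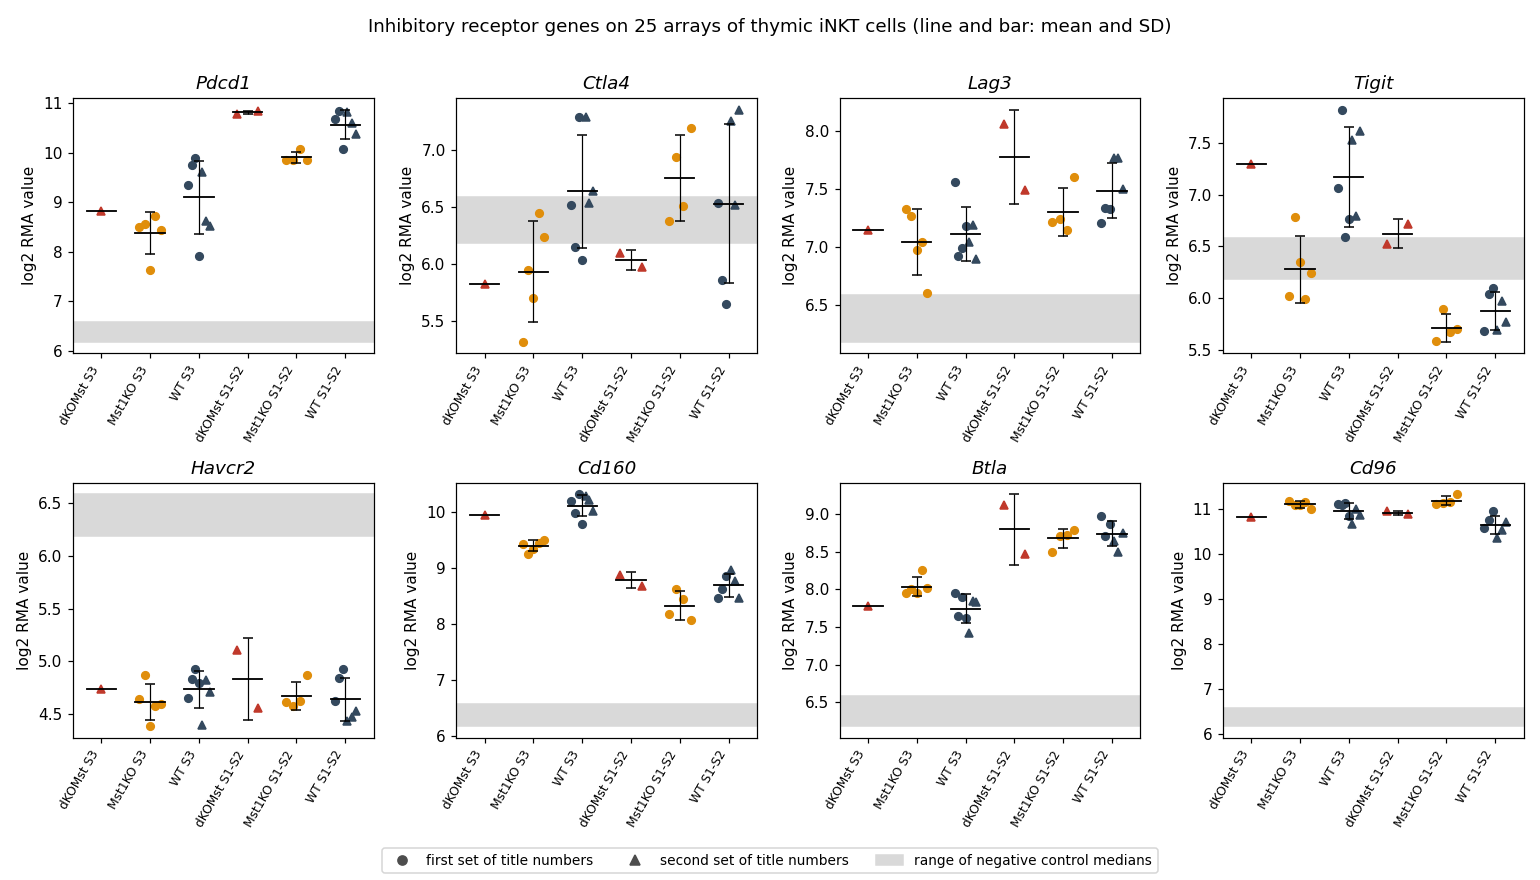
Log2 value of each of the 8 receptor genes on every array, by genotype and stage, with the mean as a line, the SD as a bar, circles and triangles for the first and second set of title numbers and the range of negative control medians in grey. Cd160 separates the stages, and at S3 Mst1KO from WT, Pdcd1 and Btla are lower in S3 cells of Mst1KO and of WT, and Havcr2 lies below the negative control medians throughout.

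The receptors did not move as a block with stage. They were chosen with earlier results of these data known, so the counts of them that passed describe them only. Among WT cells Cd160, Tigit and Cd96 rose and Pdcd1 and Btla fell in S3 against S1_S2, so 5 of 8 passed, where 16.9% of all clusters did (8.18% higher, 8.75% lower). Among Mst1KO cells Cd160 rose and Pdcd1 and Btla fell in S3 against S1_S2, 3 of 8, where 10.2% of clusters passed (5.58% higher, 4.62% lower). The median difference of the 8 genes was 0.12 among WT cells, against 0.01 over all clusters, and -0.17 among Mst1KO cells, against -0.04 over all clusters.

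Loss of Mst1 went with lower Cd160 and Tigit in S3 cells. These were 2 of 8 genes, both lower, where 6.37% of clusters passed (3.73% higher, 2.64% lower). In S1_S2 cells only Cd96 passed, higher in Mst1KO, where 0.522% of clusters passed (0.329% higher, 0.194% lower), and that call ended under several settings given beside its values. The median difference of the 8 genes was -0.32 at S3, against -0.05 over all clusters, and -0.13 at S1_S2, against -0.01 over all clusters. RNA from sorted cells was pooled, so fewer cells expressing a gene and less RNA per cell cannot be told apart.

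No receptor gene passed in dKOMst S1_S2 cells against WT with limma, where 0.923% of clusters did (0.554% higher, 0.369% lower). At an unadjusted p under 0.05 there were 4 of 8, against 10.6% of clusters, and 1 of the 4 was Havcr2, below the controls in both groups. Also among the 4 were Ctla4, below the controls in dKOMst, and Tigit, below them in WT. Against Mst1KO S1_S2 cells none passed either, where 0.171% of clusters did (0.117% higher, 0.054% lower). At an unadjusted p under 0.05 there were again 4 of 8, Havcr2 among them, against 8.5% of clusters. Ctla4, below the controls in dKOMst, and Tigit, below them in Mst1KO, were again among the 4. The stage difference itself was compared between Mst1KO and WT. No receptor passed that limma test, where 0.158% of clusters did (0.0901% higher, 0.0675% lower), and 5 of 8 had an unadjusted p under 0.05, against 9.49% of clusters. Among the 5 were Tigit, below the controls in both S1_S2 groups, and Ctla4, below them in Mst1KO S3. These counts of 0 held in all other settings tried.

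**Figure D2:**
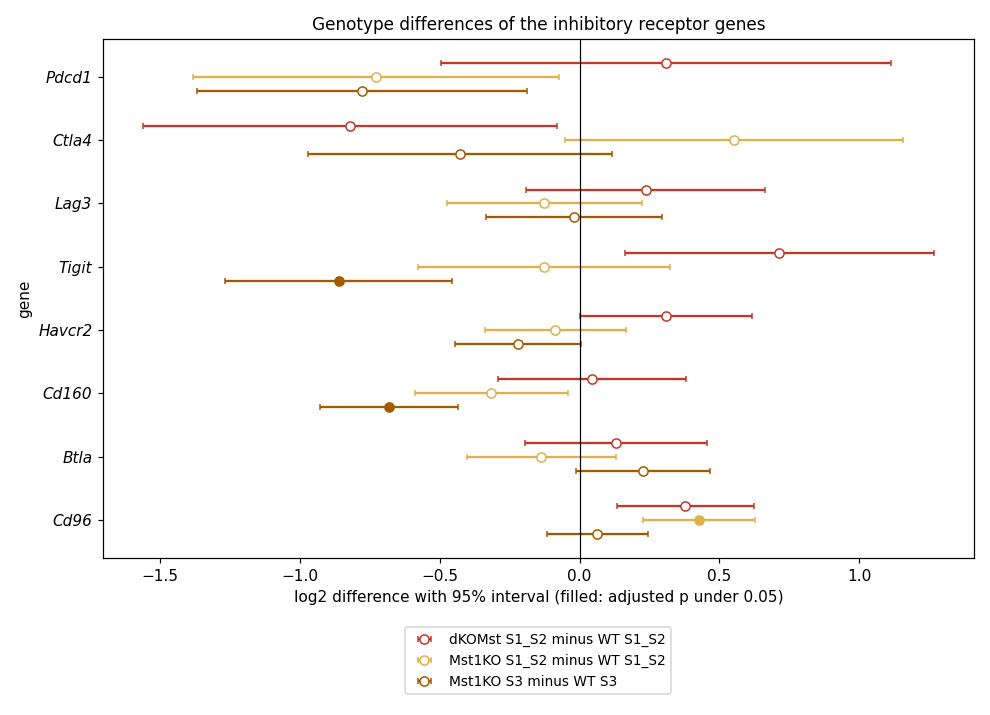
Log2 difference from WT of each receptor gene, with the 95% interval from limma, for dKOMst at S1_S2, Mst1KO at S3 and Mst1KO at S1_S2. Filled points passed at an adjusted p under 0.05, which holds for Cd160 and Tigit in Mst1KO S3 cells and Cd96 in Mst1KO S1_S2 cells. Differences of Havcr2, and of Tigit in Mst1KO S1_S2 cells, lie between groups below the controls.

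Cd160 and Btla share the ligand HVEM and went opposite ways with stage. Cd160 read 9.95 on the dKOMst S3 array. The Mst1KO S3 arrays had 9.44, 9.26, 9.34, 9.46 and 9.51, and the WT S3 arrays ran from 9.80 to 10.32 with a median of 10.21. All Mst1KO S3 arrays thus lay below all WT S3 arrays, a separation in that direction seen for 1.07% of clusters. The difference was -0.68 ± 0.12 on the log2 scale (SE, limma adjusted p = 0.0015), a level 0.624 times that of WT S3. Within the first set of title numbers, where both genotypes lie, it was -0.68 (limma adjusted p = 0.010).

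In S1_S2 cells Cd160 had 8.89 and 8.69 on the dKOMst arrays, 8.19, 8.63, 8.45 and 8.07 on the Mst1KO arrays, and 8.47 to 8.98 with a median of 8.70 on the WT arrays. Mst1KO overlapped WT, with a difference of -0.32 ± 0.13 that did not pass (limma adjusted p = 0.46), and dKOMst differed from WT by 0.04 ± 0.16 (95% interval -0.29 to 0.38). Within Mst1KO and within WT every S3 array lay above every S1_S2 array, a separation that 6.96% of clusters showed among Mst1KO cells and 3.26% among WT cells. The rise in S3 against S1_S2 was 1.07 ± 0.13 among Mst1KO cells (SE, limma adjusted p = 2.3e-06) and 1.43 ± 0.10 among WT cells (limma adjusted p = 3.6e-10), folds of 2.10 and 2.70. The difference between these rises, -0.37 ± 0.16, did not pass (limma adjusted p = 0.49).

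Btla fell in S3 cells. It read 7.78 on the dKOMst S3 array, 7.95, 8.01, 7.95, 8.26 and 8.01 on the Mst1KO S3 arrays, and 7.41 to 7.95 with a median of 7.83 on the WT S3 arrays. The S1_S2 arrays had 9.13 and 8.47 for dKOMst, 8.50, 8.71, 8.72 and 8.79 for Mst1KO, and 8.49 to 8.97 with a median of 8.73 for WT. The stages did not overlap among Mst1KO or among WT cells, as for 7.09% of clusters lower in S3 among Mst1KO cells and 3.42% among WT cells. The fall in S3 against S1_S2 was -0.64 ± 0.12 among Mst1KO cells (SE, limma adjusted p = 0.00087), at 0.641 times the S1_S2 level, and -1.01 ± 0.10 among WT cells (limma adjusted p = 8.5e-08), at 0.498 times. With only arrays that had Y-linked signal the Mst1KO call was lost (-0.61, limma adjusted p = 0.0505).

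Between genotypes Btla did not pass at either stage. The difference of Mst1KO from WT was 0.23 ± 0.12 at S3 (SE, limma adjusted p = 0.23) and -0.14 ± 0.13 at S1_S2 (limma adjusted p = 0.87), and that of dKOMst from WT at S1_S2 was 0.13 ± 0.16 (limma adjusted p = 0.87). The smaller fall among Mst1KO than WT cells, a difference of 0.36 ± 0.16, did not pass (limma adjusted p = 0.48).

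The promoter windows of the genes that moved most with stage are shown from RefSeq (GRCm38.p6). Among WT cells Cd160 and Tigit were higher and Pdcd1 and Btla lower in S3 than in S1_S2. Each runs from 250 bases before to 50 after an annotated start, 5′ to 3′ on the gene's strand. Windows were found for 7 of the 8 genes, 8 windows in all since Cd160 has 2 annotated starts. Capitals mark a match, on either strand, to the letters TGTGGT (RUNX), GGAATG (TEAD, the DNA partners of the Hippo effectors), TGANTCA (AP-1), AGGTGTGA (T-box) or AAAGGTCA (NR4A). None of these letters overlapped in the windows shown.
Cd160, first start, chr3:96829302-96829601, minus strand: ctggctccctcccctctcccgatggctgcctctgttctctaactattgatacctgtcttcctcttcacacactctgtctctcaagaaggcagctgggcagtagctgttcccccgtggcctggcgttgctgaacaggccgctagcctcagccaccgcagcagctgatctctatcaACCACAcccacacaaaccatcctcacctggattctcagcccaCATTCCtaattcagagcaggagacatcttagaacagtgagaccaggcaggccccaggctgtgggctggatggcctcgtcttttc
Cd160, second start, chr3:96814472-96814771, minus strand: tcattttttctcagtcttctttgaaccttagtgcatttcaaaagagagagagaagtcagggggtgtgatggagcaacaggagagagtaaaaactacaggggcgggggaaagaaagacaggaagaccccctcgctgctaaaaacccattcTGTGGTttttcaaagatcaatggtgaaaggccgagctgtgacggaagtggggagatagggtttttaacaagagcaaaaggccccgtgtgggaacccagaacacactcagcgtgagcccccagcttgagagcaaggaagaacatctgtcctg
Tigit, chr16:43664135-43664434, minus strand: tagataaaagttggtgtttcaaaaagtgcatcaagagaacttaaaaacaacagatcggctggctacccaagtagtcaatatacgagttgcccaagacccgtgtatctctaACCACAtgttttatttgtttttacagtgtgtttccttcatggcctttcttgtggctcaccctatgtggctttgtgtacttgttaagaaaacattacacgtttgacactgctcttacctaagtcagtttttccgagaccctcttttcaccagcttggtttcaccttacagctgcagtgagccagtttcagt
Pdcd1, chr1:94052504-94052803, minus strand: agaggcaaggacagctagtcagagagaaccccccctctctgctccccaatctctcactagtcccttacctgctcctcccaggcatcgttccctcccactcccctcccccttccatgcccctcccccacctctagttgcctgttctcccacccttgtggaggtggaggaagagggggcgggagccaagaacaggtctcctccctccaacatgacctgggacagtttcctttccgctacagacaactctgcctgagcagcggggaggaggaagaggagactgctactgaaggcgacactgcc
Btla, chr16:45224087-45224386, plus strand: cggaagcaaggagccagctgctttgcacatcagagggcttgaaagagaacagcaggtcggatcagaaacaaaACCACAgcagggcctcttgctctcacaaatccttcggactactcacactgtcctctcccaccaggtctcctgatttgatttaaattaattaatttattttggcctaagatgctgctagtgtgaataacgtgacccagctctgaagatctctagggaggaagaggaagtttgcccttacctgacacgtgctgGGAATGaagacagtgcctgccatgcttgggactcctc

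The RUNX letters occurred in 6 of the 8 windows, those of Tigit, Havcr2, Btla, Cd96 and both of Cd160, against 16.8% of the 32851 promoter windows of the same length in the table. In the windows printed they lie at -140 to -135 from the start in Tigit, -76 to -71 and -101 to -96 in the Cd160 windows and -178 to -173 in Btla. They were thus present before genes that rose and before a gene that fell with stage. The TEAD letters were in 2 of 8 windows, the first of Cd160 and that of Btla, against 14.7% of all windows. The AP-1 letters were in 1, that of Havcr2, against 7.81%, and the T-box and NR4A letters were in 0 of 8, against 1.28% and 1.51%. The letters GGAAA (NFAT), not capitalised, were in 5 of 8 windows and in 61.3% of all. A match describes these letters only, and binding was not measured.

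Tigit and Cd96 encode receptors for CD155. Tigit was read near the negative controls, which limits its folds. It had 7.30 on the dKOMst S3 array, 6.02, 6.79, 6.35, 5.99 and 6.24 on the Mst1KO S3 arrays, and 6.59 to 7.82 with a median of 7.06 on the WT S3 arrays. It exceeded the control median on 1 of 5 Mst1KO S3 arrays and on all 7 WT S3 arrays. Only the highest Mst1KO array, replicate 2, reached into the WT range. The difference of Mst1KO from WT at S3 was -0.86 ± 0.20 (SE, limma adjusted p = 0.012), a level 0.551 times that of WT. It was -0.78 within the first set of title numbers (limma adjusted p = 0.0496), and the call was lost when the other groups were left out of the fit (-0.78, limma adjusted p = 0.11) and with only arrays that had Y-linked signal (-0.79, limma adjusted p = 0.093).

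In S1_S2 cells Tigit had 6.53 and 6.72 in dKOMst, 5.58, 5.90, 5.67 and 5.70 in Mst1KO, and 5.68 to 6.10 with a median of 5.87 in WT. Both dKOMst arrays were above the controls and above every other S1_S2 array, while no Mst1KO or WT S1_S2 array exceeded its control median. Clusters with dKOMst wholly above WT made up 7.66%, and wholly below WT 6.68%. Those with dKOMst wholly above Mst1KO made up 15.5%. The fitted difference from WT of 0.71 ± 0.27 did not pass (SE, limma adjusted p = 0.28). As a bound on the group means Tigit was at least 0.24 higher on the log2 scale in dKOMst than in WT. Against Mst1KO, in the other set of title numbers, the mean was at least 0.12 higher, and that difference did not pass (limma adjusted p = 0.41).

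Tigit rose in WT S3 cells by at least 0.78 on the log2 scale over WT S1_S2 cells, with a fitted difference of 1.30 ± 0.17 (SE, limma adjusted p = 4.7e-06). The WT stages did not overlap, as for 3.26% of clusters higher in S3. Among Mst1KO cells the fitted stage difference was 0.57 ± 0.21 (limma adjusted p = 0.090), with no bound above 0 since S1_S2 lay below the controls. It passed with only the groups compared (limma adjusted p = 0.028) and with array weights (limma adjusted p = 0.035). The difference between the stage differences was -0.73 ± 0.27 and did not pass (limma adjusted p = 0.38). Both S1_S2 groups in it lay below the controls, so its size is not read as a change.

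Cd96 was far above the controls on every array and varied little. It read 10.95 and 10.88 on the dKOMst S1_S2 arrays, 11.10, 11.13, 11.15 and 11.32 on the Mst1KO S1_S2 arrays, and 10.34 to 10.94 with a median of 10.64 on the WT S1_S2 arrays. The Mst1KO arrays lay above all WT arrays, a separation in that direction seen for 1.5% of clusters. Cd96 was 0.43 ± 0.10 higher in Mst1KO S1_S2 than in WT S1_S2 (SE, limma adjusted p = 0.041), a fold of 1.35. The call was lost within the first set of title numbers (0.42, limma adjusted p = 0.14), with only the groups compared (0.42, limma adjusted p = 0.24), after quantile normalization (0.41, limma adjusted p = 0.077), with a sex term (0.39, limma adjusted p = 0.16) and with only arrays that had Y-linked signal (0.37, limma adjusted p = 0.52). It was also lost when any 1 of 8 arrays was left out, the Mst1KO replicates 1 to 4 and the WT replicates 1, 2, 4 and 5 (0.37 to 0.45, highest limma adjusted p = 0.17).

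The dKOMst S1_S2 arrays overlapped the top of the WT range, with a difference of 0.38 ± 0.12 that did not pass (SE, limma adjusted p = 0.16). The overlap came from a first-set WT array, replicate 3 at 10.94. The WT S1_S2 arrays of the dKOMst set read 10.34, 10.54 and 10.70, below both dKOMst arrays. Groups this small can separate by chance, and the share of clusters that did was not counted. No difference is read from it. Mst1KO and dKOMst were compared with the same WT S1_S2 arrays. At S3 Cd96 had 10.82 in dKOMst, 11.18, 11.09, 11.09, 11.16 and 10.99 in Mst1KO, and 10.65 to 11.12 with a median of 10.99 in WT, and the difference of Mst1KO from WT was 0.06 ± 0.09 (95% interval -0.12 to 0.24). Among WT cells Cd96 was 0.29 ± 0.08 higher in S3 than in S1_S2 (SE, limma adjusted p = 0.0089), with overlapping stages. That call was lost within the first set (0.28, limma adjusted p = 0.13) and within the second set (0.31, limma adjusted p = 0.21). Among Mst1KO cells the stage difference was -0.07 ± 0.09 (limma adjusted p = 0.69). The stage differences differed by -0.36 ± 0.12, which did not pass (limma adjusted p = 0.32).

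**Figure D3:**
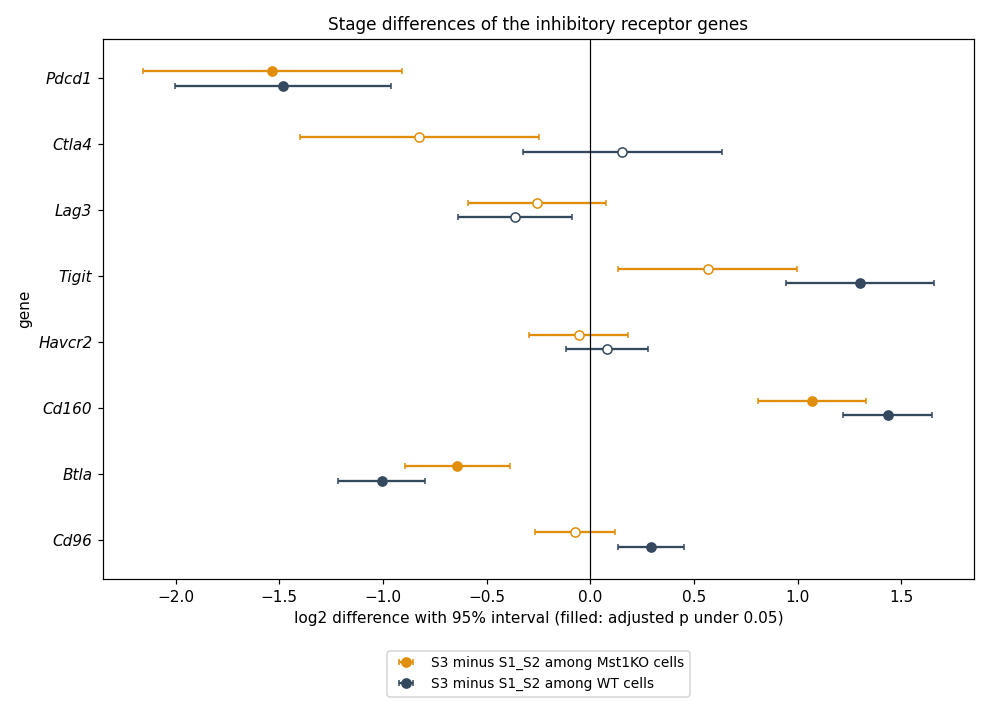
Log2 difference between S3 and S1_S2 of each receptor gene among Mst1KO cells and among WT cells, with the 95% interval from limma. Filled points passed at an adjusted p under 0.05. Cd160 rose and Pdcd1 and Btla fell in both genotypes, Tigit and Cd96 passed among WT cells, and Havcr2 lies below the controls in all groups.

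Pdcd1 and Ctla4 encode receptors for ligands of the B7 family. Pdcd1 had its highest levels in S1_S2 cells. It read 10.79 and 10.84 in dKOMst S1_S2, 9.85, 9.85, 10.07 and 9.86 in Mst1KO S1_S2, and 10.07 to 10.84 with a median of 10.64 in WT S1_S2. The highest Mst1KO array and the lowest WT array met at 10.07, with Mst1KO just below, as for 1.08% of clusters that were lower without overlap. The difference of Mst1KO from WT was -0.73 ± 0.32 and did not pass (SE, limma adjusted p = 0.50), and that of dKOMst from WT was 0.31 ± 0.39 (limma adjusted p = 0.88). Pdcd1 was 1.04 ± 0.46 higher in dKOMst than in Mst1KO, which did not pass (limma adjusted p = 0.54), although the groups did not overlap, as for 15.5% of clusters in that direction.

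At S3 Pdcd1 read 8.82 in dKOMst, 8.51, 8.56, 7.64, 8.71 and 8.45 in Mst1KO, and 7.92 to 9.89 with a median of 9.35 in WT. The WT arrays had an SD of 0.74, the widest spread of any receptor gene in any group, and Mst1KO overlapped their lower part. The difference of Mst1KO from WT was -0.78 ± 0.28 (SE, limma adjusted p = 0.10). Without WT S3 replicate 4, the lowest of its group at 7.92, it was -1.09 and passed (limma adjusted p = 0.0092).

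The fall of Pdcd1 with stage was alike in size in both genotypes, at -1.53 ± 0.30 among Mst1KO cells (SE, limma adjusted p = 0.0012) and -1.48 ± 0.25 among WT cells (limma adjusted p = 0.00011), or 0.345 and 0.358 times the S1_S2 level. The stages did not overlap in either, as for 7.09% of clusters lower in S3 among Mst1KO cells and 3.42% among WT cells. The falls differed by -0.05 ± 0.39, with a 95% interval of -0.86 to 0.76. With only arrays that had Y-linked signal the Mst1KO call was lost (-1.34, limma adjusted p = 0.080).

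Ctla4 lay close to the controls and scattered widely. It read 6.10 and 5.98 on the dKOMst S1_S2 arrays, 6.38, 6.94, 6.51 and 7.20 on the Mst1KO S1_S2 arrays, and 5.65 to 7.35 with a median of 6.53 on the WT S1_S2 arrays. It was above the control median on none of 2, 2 of 4 and 3 of 6 of these arrays. At S3 it read 5.82 in dKOMst, 5.32, 5.95, 5.70, 6.45 and 6.24 in Mst1KO, and 6.04 to 7.30 with a median of 6.53 in WT, and exceeded the control median on none, none and 5 of 7. Both dKOMst S1_S2 arrays lay below every Mst1KO S1_S2 array, as 15% of clusters did, across the sets of title numbers. They were inside the range of all WT S1_S2 arrays. They lay below the WT arrays of their own set, at 7.26, 6.52 and 7.35. The share of clusters separated in this way was not counted, so no difference is read from so few arrays. No comparison of Ctla4 passed. As a bound it was at least 0.14 lower in Mst1KO S3 than in WT S3 (limma adjusted p = 0.33), at least 0.18 lower in dKOMst S1_S2 than in WT S1_S2 (limma adjusted p = 0.39) and at least 0.41 lower in dKOMst than in Mst1KO S1_S2 (limma adjusted p = 0.25). The difference of Mst1KO from WT at S1_S2 was 0.55 ± 0.29 (limma adjusted p = 0.64).

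With stage the mean of Ctla4 was at least 0.26 lower in S3 among Mst1KO cells, a difference that did not pass (limma adjusted p = 0.062). Ctla4 differed by 0.15 ± 0.23 among WT cells (SE, limma adjusted p = 0.75). The difference between the stage differences was -0.98 ± 0.36 and did not pass (limma adjusted p = 0.39). The Mst1KO stage call was gained with only the groups compared (limma adjusted p = 0.033), with array weights (limma adjusted p = 0.043), among the brighter clusters (limma adjusted p = 0.04998) and without Mst1KO S3 replicate 4 (limma adjusted p = 0.038).

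Lag3 was above the controls on all 25 arrays and passed in no comparison. It read 8.06 and 7.49 in dKOMst S1_S2, 7.22, 7.24, 7.15 and 7.60 in Mst1KO S1_S2, and 7.21 to 7.77 with a median of 7.42 in WT S1_S2. At S3 it read 7.15 in dKOMst, 7.33, 7.27, 6.98, 7.04 and 6.61 in Mst1KO, and 6.90 to 7.56 with a median of 7.04 in WT. All genotypes overlapped within each stage. The difference of Mst1KO from WT was -0.02 ± 0.15 at S3 (95% interval -0.33 to 0.29) and -0.13 ± 0.17 at S1_S2 (95% interval -0.47 to 0.22), and that of dKOMst from WT at S1_S2 was 0.24 ± 0.21 (95% interval -0.19 to 0.66).

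Between stages Lag3 differed by -0.26 ± 0.16 among Mst1KO cells (SE, limma adjusted p = 0.36) and by -0.36 ± 0.13 among WT cells (limma adjusted p = 0.067). The WT difference passed within the second set of title numbers (-0.63, limma adjusted p = 0.038), with array weights (-0.41, limma adjusted p = 0.047) and without WT S3 replicate 1, the highest of its group (-0.45, limma adjusted p = 0.013). Havcr2 exceeded its control median on no array. Its values ran from 4.39 to 5.11 over all 25 arrays, so no difference of Havcr2 between groups is read as a change. Its fitted values appear only where all 8 genes are counted, plotted or rerun under other settings.

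The single dKOMst S3 array allows no test and was set against the 3 WT S3 arrays of the same set of title numbers. It lay outside their range for 2 of 8 receptor genes, where 52.5% of clusters did (26.6% above, 26% below). Ctla4 read 5.82 in dKOMst against 6.53 to 7.29 in WT, and Cd160 read 9.95 in dKOMst against 10.03 to 10.30 in WT. Against all 7 WT S3 arrays 1 of 8 lay outside, Ctla4, where 24.9% of clusters did. Pdcd1, Lag3, Tigit, Btla and Cd96 lay inside the range of the 3 WT arrays. With 2 WT arrays left the range narrows for all clusters. Without WT S3 replicate 5, 6 or 7 the receptors outside were 5, 5 and 2 of 8, where 69.1%, 68.8% and 67.1% of clusters were.

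The order of the group means differed between the genes. For Cd160 the order was WT S3, dKOMst S3, Mst1KO S3, then the S1_S2 groups, and the neighbours WT S3 and dKOMst S3 overlapped. Among its S1_S2 groups dKOMst lay wholly above Mst1KO, as for 15.5% of clusters, and WT overlapped both. That difference between dKOMst and Mst1KO did not pass (limma adjusted p = 0.65). For Pdcd1 it was dKOMst S1_S2 and WT S1_S2, which overlapped, then Mst1KO S1_S2, which overlapped WT S3, then the dKOMst S3 array inside the WT S3 range, and Mst1KO S3 below it. For Btla the S1_S2 groups overlapped each other and stood above Mst1KO S3, which stood above the dKOMst S3 array, itself inside the WT S3 range. For Cd96 the order was Mst1KO S1_S2, Mst1KO S3, WT S3, dKOMst S1_S2, dKOMst S3 and WT S1_S2, with overlap between all neighbours except dKOMst S1_S2 and dKOMst S3. Tigit, Ctla4, Lag3 and Havcr2 had overlap between all neighbours. The dKOMst S3 group is 1 array, and its separations from neighbours were not counted over all clusters, so no difference is read from them.

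Markers of other cells and states that moved along with these comparisons are given as measured. In Mst1KO S3 against WT S3 the mean level of 9 immature NKT and cell cycle markers was 9.37 to 9.75 in Mst1KO and 8.64 to 9.13 in WT, with 8 of 9 genes passing higher, among them Mki67 by 1.42 ± 0.13 and Jun by 1.14 ± 0.20 (SE). The mean of 7 double-positive thymocyte markers was 7.14 to 7.44 in Mst1KO and 6.54 to 7.06 in WT, with 2 of 7 passing higher, Cd8b1 and Cd24a. Cd24a, which is in both lists, was above the controls on no array. The mean of 6 regulatory T cell markers was 7.27 to 7.64 in Mst1KO and 7.58 to 7.81 in WT, with 1 of 6 passing lower, and Il2ra and Lrrc32 above the controls on no array. The mean of 7 natural killer cell markers was 8.91 to 9.17 in Mst1KO S3 and 8.73 to 9.01 in WT S3, with 4 of 7 passing higher and 1 lower, and Ncr1, the gene of the NK receptor NKp46, above the controls on no Mst1KO array. Of 3 gamma-delta T cell markers 1 passed, Cd163l1, higher by 0.82 ± 0.12 (SE). Their part in the lower Cd160 and Tigit was not tested.

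In Mst1KO S1_S2 against WT S1_S2 the immature NKT and cell cycle markers averaged 9.93 to 10.23 in Mst1KO and 9.30 to 9.99 in WT. Of the 9 genes 3 passed, all higher, the early activation gene Cd69 by 1.05 ± 0.16, Fos by 1.40 ± 0.20 and Jun by 1.49 ± 0.22 (SE), while the cell cycle gene Mki67 differed by 0.28 ± 0.15 and did not pass. The gamma-delta T cell markers averaged 8.88 to 9.20 in Mst1KO and 8.71 to 9.13 in WT. Of these 3 genes Cd163l1 was 0.77 ± 0.14 higher and Sox13 fell by 0.67 ± 0.14 (SE). Their part in the higher Cd96 was not tested.

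Between the stages natural killer cell markers rose and cell cycle genes fell. The mean of the natural killer cell markers was 8.91 to 9.17 in Mst1KO S3 and 6.58 to 6.65 in Mst1KO S1_S2, with 5 of 7 higher, and 8.73 to 9.01 in WT S3 and 6.29 to 6.80 in WT S1_S2, with 6 of 7 higher. The sort itself took NK1.1-positive cells as S3, and S3 iNKT cells express several of these genes. The immature NKT and cell cycle list moved both ways. Among Mst1KO cells 4 of 9 fell and 2 rose, and among WT cells 5 of 9 fell and 3 rose. Mki67 fell by 1.38 ± 0.14 among Mst1KO cells and fell by 2.52 ± 0.12 among WT cells (SE). Cdk1, a kinase of the cell cycle, fell by 1.62 ± 0.23 among Mst1KO cells and fell by 2.67 ± 0.19 among WT cells. Those that rose were Cd69, by 0.86 ± 0.16, and Cd24a, below the controls, among Mst1KO cells, and Cd69, Fos and Jun among WT cells, with Fos by 0.84 ± 0.16. The list mean was 9.37 to 9.75 in Mst1KO S3 and 9.93 to 10.23 in Mst1KO S1_S2, and 8.64 to 9.13 in WT S3 and 9.30 to 9.99 in WT S1_S2. Of the 7 double-positive thymocyte markers 3 passed higher in S3 among Mst1KO cells. These were Dntt by 1.06 ± 0.33, Cd8a by 0.67 ± 0.20 (SE) and Cd24a, below the controls. Among WT cells 1 of 7 passed, Dntt, at least 0.26 higher. The part of all these markers in the stage differences of the receptors was not tested. In dKOMst S1_S2 cells the natural killer cell markers averaged 7.16 to 7.27, above the WT S1_S2 range, beside the higher Tigit readings. Against WT S1_S2 2 of 7 passed, both higher, Fcer1g by 2.06 ± 0.24 (SE) and Eomes by at least 0.61. Ncr1 and Klri2 were above the controls on no dKOMst S1_S2 array. The part of these markers in the Tigit readings was not tested. The B cell, myeloid, gamma-delta T cell, and thymic epithelial and erythroid lists had at most 2 members passing in any comparison except myeloid markers between the WT stages, with 2 higher and 1 lower.

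Other genes of the inhibitory pathways were taken from 5 lists. The lists were written with earlier results of these data known, so the shares of them that passed, in every comparison, describe them only. In Mst1KO S3 against WT S3 9 of the 77 measured genes passed, 11.7%, beside 6.37% of all clusters. Of 17 ligand genes 1 rose, Lgals3, a galectin that binds LAG-3, by 0.80 ± 0.19 (SE, limma adjusted p = 0.013). Of 6 activating partners 1 fell, Cd4, which like LAG-3 binds MHC class II, by 0.47 ± 0.11 on the log2 scale (limma adjusted p = 0.013). Of 18 phosphatases and adaptors 1 rose, Dgka, a kinase that removes the second messenger diacylglycerol, by 0.34 ± 0.07 (limma adjusted p = 0.0064). The ligands of PD-1, CTLA-4, HVEM receptors and CD155 receptors on the list did not pass.

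Of 17 measured transcription factors in that comparison 2 rose and 1 fell. Nr4a1, an early response gene of the antigen receptor, rose by 0.53 ± 0.12 (SE, limma adjusted p = 0.0098) while its relative Nr4a2 fell by 0.76 ± 0.16 (limma adjusted p = 0.0074). Eomes, a T-box factor of killer lymphocytes, was 0.67 ± 0.14 higher (limma adjusted p = 0.0076) but read near the controls, above them on 3 of 5 Mst1KO and 1 of 7 WT arrays. Of 19 measured other inhibitory surface proteins 2 rose and 1 fell. Lgals1, a secreted galectin on that list, rose by 0.89 ± 0.07 (limma adjusted p = 4.5e-08), Sit1, an adaptor that dampens antigen receptor signals, rose by 0.63 ± 0.14 (limma adjusted p = 0.011), and Entpd1, the ectonucleotidase CD39, fell by 0.51 ± 0.14 (limma adjusted p = 0.032). The calls of Entpd1 and Sit1 ended without the term for title numbers and with it made random. They also ended with only the groups compared and with Y-linked signal only (limma adjusted p up to 0.26 over the settings). The Entpd1 call was further lost within the first set and with a sex term. Leaving out any 1 of WT S3 replicates 3 and 4 and Mst1KO S3 replicates 2, 3 and 4 ended it too (limma adjusted p up to 0.088). With only arrays that had Y-linked signal the calls of Lgals3, Dgka, Nr4a1 and Eomes ended too (limma adjusted p of 0.12, 0.054, 0.10 and 0.090). Nr4a1 also lost its call with only the groups compared, and Eomes without the term for title numbers (limma adjusted p = 0.073). List medians lay between -0.13 and 0.06, against -0.05 over all clusters.

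In Mst1KO S1_S2 against WT S1_S2 the lists had 1 call of 77 genes (1.3%, beside 0.522% of all clusters), Tox, a factor linked to sustained inhibitory receptor expression, which fell by 0.51 ± 0.11 (SE, limma adjusted p = 0.029). That call ended without WT replicates 1 or 2 or Mst1KO replicates 1, 2 or 4 (limma adjusted p up to 0.12). It also ended without the term for title numbers, within the first set, with only the groups compared and with Y-linked signal only (limma adjusted p up to 0.19). In dKOMst S1_S2 against WT S1_S2 5 of 77 passed (6.49%, beside 0.923% of all clusters). Ubash3b, a phosphatase of antigen receptor signalling, rose by 0.61 ± 0.13 (limma adjusted p = 0.020) and Dgka rose by 0.49 ± 0.10 (limma adjusted p = 0.0092). Eomes was at least 0.61 higher (limma adjusted p = 0.020), Nr4a3 fell by 0.89 ± 0.19 (limma adjusted p = 0.017), and Cd244a, the receptor 2B4, rose by 1.14 ± 0.27 (limma adjusted p = 0.044). With dKOMst replicate 1 or 2 left out none of these 5 passed, and single WT S1_S2 arrays also ended the calls of Cd244a (replicates 1, 2, 4, 5 and 6), Ubash3b (replicate 4), Eomes and Nr4a3 (replicate 5 for both), with limma adjusted p up to 0.41. All 5 dKOMst calls also ended within the second set of title numbers, which holds dKOMst and WT arrays. Those of Dgka, Eomes, Nr4a3 and Ubash3b ended with only the groups compared. That of Cd244a ended with a sex term, and those of Cd244a and Ubash3b with Y-linked signal only. Ubash3b also lost its call without the term for title numbers and after quantile normalization (limma adjusted p up to 0.31 over the settings for the 5). The difference of stage differences had 1 call in the lists, Lgals1 at 0.56 ± 0.10 (limma adjusted p = 0.010), lost within the first set of title numbers and with Y-linked signal only (limma adjusted p up to 0.21).

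**Figure D4:**
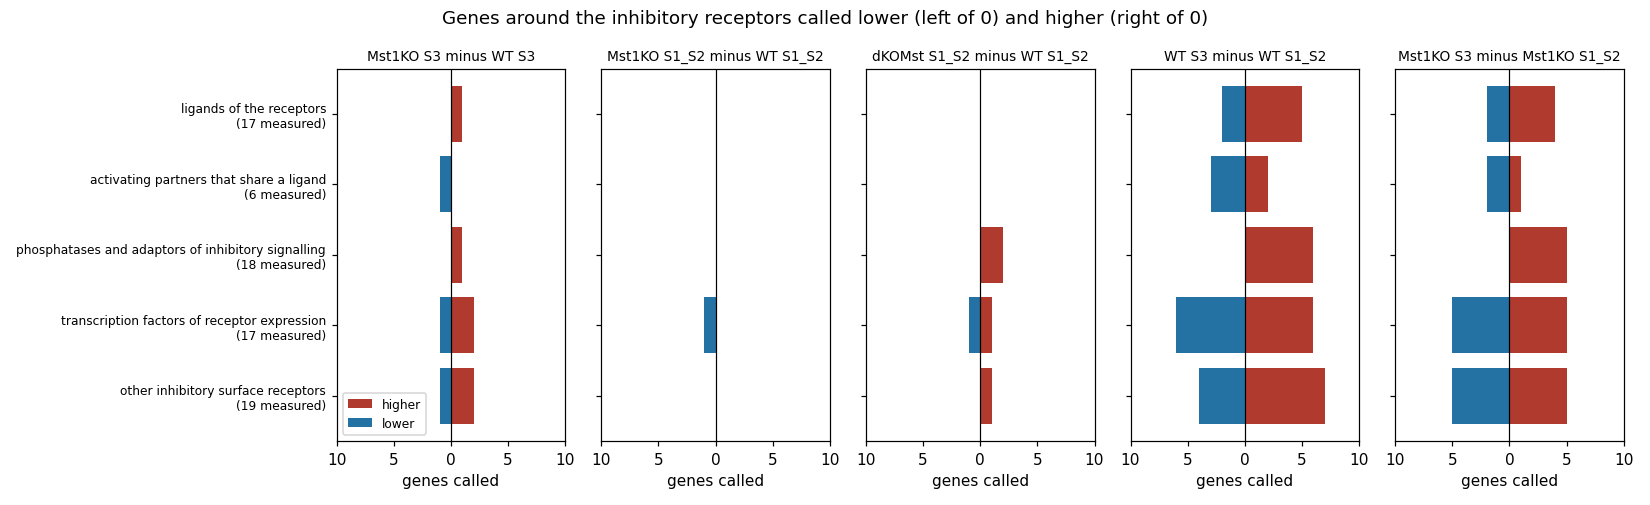
Number of genes in each pathway list that passed higher (right of 0) or lower (left of 0), in 5 of the comparisons, with the number measured. Calls lie mostly between the stages, and the comparisons between genotypes have at most 3 in a list.

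In S3 against S1_S2 34 of the 77 listed genes passed among Mst1KO cells, 44.2% beside 10.2% of all clusters, and 41 among WT cells, 53.2% beside 16.9% of all clusters. The lists were written with earlier results known, so these shares describe them only. Of the 17 ligand genes 4 rose and 2 fell in S3 against S1_S2 among Mst1KO cells, and 5 rose and 2 fell among WT cells. Pvr, the gene of CD155, rose by 1.62 ± 0.13 among Mst1KO cells (SE, limma adjusted p = 1.0e-08) and by 1.05 ± 0.11 among WT cells (limma adjusted p = 2.0e-07). Cd274, the gene of PD-L1, fell by 0.52 ± 0.11 among Mst1KO cells (limma adjusted p = 0.0033), and Cd86 was at least 0.37 lower (limma adjusted p = 0.013), a call that ended without Mst1KO S1_S2 replicate 3 (limma adjusted p = 0.053). Among WT cells Lgals3 fell by 0.85 ± 0.16 (limma adjusted p = 0.00051) and the MHC class II gene H2-Ab1 rose by 0.80 ± 0.12 (limma adjusted p = 3.1e-05).

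Of the 6 activating partners 1 rose and 2 fell in S3 among Mst1KO cells, and 2 rose and 3 fell among WT cells. Icos, a costimulatory receptor, fell by 0.81 ± 0.10 among Mst1KO cells (SE, limma adjusted p = 7.5e-06) and by 0.76 ± 0.09 among WT cells (limma adjusted p = 6.2e-07). Tnfsf14, the HVEM ligand LIGHT, rose by 0.39 ± 0.10 among Mst1KO cells (limma adjusted p = 0.012; 0.059 without S1_S2 replicate 3) and by 0.67 ± 0.08 among WT cells (limma adjusted p = 1.5e-06). Cd4 fell by 0.47 ± 0.11 among Mst1KO cells (limma adjusted p = 0.0074). With Y-linked signal only, the Mst1KO stage calls of Cd4, Tnfsf14 and Cd86 ended (limma adjusted p of 0.17, 0.18 and 0.10). Cd226, the activating receptor for CD155, rose by 0.53 ± 0.09 among WT cells (limma adjusted p = 9.5e-05), with 0.69 within the first set of title numbers and 0.34 within the second, where it did not pass (limma adjusted p = 0.14).

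Among the 18 phosphatases and adaptors 5 rose and none fell in S3 among Mst1KO cells, and 6 rose and none fell among WT cells. Ptpn6, the phosphatase SHP-1 that PD-1 and BTLA can recruit, rose by 0.43 ± 0.07 among Mst1KO cells (SE, limma adjusted p = 0.00011) and by 0.58 ± 0.06 among WT cells (limma adjusted p = 5.1e-08). Ptpn22, a phosphatase that restrains antigen receptor kinases, rose by 0.65 ± 0.09 among Mst1KO cells (limma adjusted p = 1.5e-05) and by 0.70 ± 0.07 among WT cells (limma adjusted p = 1.6e-07). Ubash3a rose by 0.72 ± 0.12 among Mst1KO cells (limma adjusted p = 0.00020) and by 0.68 ± 0.10 among WT cells (limma adjusted p = 1.7e-05).

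Among the 17 transcription factors 5 rose and 5 fell in S3 among Mst1KO cells, and 6 rose and 6 fell among WT cells. Tbx21, the T-bet gene, rose by 1.95 ± 0.17 among Mst1KO cells (SE, limma adjusted p = 1.3e-08) and by 1.91 ± 0.14 among WT cells (limma adjusted p = 2.7e-10). Id3, an inhibitor of E proteins, fell by 1.56 ± 0.22 among Mst1KO cells (limma adjusted p = 1.9e-05) and by 1.99 ± 0.18 among WT cells (limma adjusted p = 1.2e-08). Irf4, induced by antigen receptor signals, fell by 1.36 ± 0.20 among Mst1KO cells (limma adjusted p = 4.7e-05) and by 1.95 ± 0.17 among WT cells (limma adjusted p = 5.3e-09).

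Of the 19 other inhibitory surface proteins 5 rose and 5 fell in S3 among Mst1KO cells, and 7 rose and 4 fell among WT cells. Entpd1 rose by 2.12 ± 0.15 among Mst1KO cells (SE, limma adjusted p = 5.1e-10) and by 2.26 ± 0.12 among WT cells (limma adjusted p = 2.4e-12). Cd244a rose by 1.36 ± 0.21 among Mst1KO cells (limma adjusted p = 9.3e-05) and by 2.34 ± 0.18 among WT cells (limma adjusted p = 6.8e-10). Pecam1, the adhesion receptor CD31, fell by 1.09 ± 0.13 among Mst1KO cells (limma adjusted p = 3.8e-06) and by 1.33 ± 0.11 among WT cells (limma adjusted p = 3.7e-09).

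The genes whose values ran most alike with each receptor over the 25 arrays are given as a description, since the arrays share the stage difference. Cd160 was closest to Litaf (Pearson r = 0.954), Trf (0.953) and Gzma, the granzyme A gene (0.952). Within the 13 S3 arrays these were 0.944, 0.940 and 0.869, and within the 12 S1_S2 arrays 0.573, 0.627 and 0.579. Pdcd1 was closest to Cep76 (r = 0.962), Pard6g (0.937) and Ccng1 (0.911), with 0.930, 0.848 and 0.785 within S3 and 0.863, 0.592 and 0.834 within S1_S2. Btla was closest to Irak3 (r = 0.941), Dzip1 (0.937) and Themis (0.933), with 0.700, 0.871 and 0.738 within S3 and 0.613, 0.347 and 0.171 within S1_S2. Tigit was closest to Vps37b (r = 0.893), Emid1 (0.848) and Sulf2 (0.839), with 0.691 to 0.811 within S3 and 0.637 to 0.728 within S1_S2. Cd96 was closest to Clec2d (r = 0.797), Galnt10 (0.785) and Tmem65 (0.751), with 0.365 to 0.627 within S3 and 0.885 to 0.902 within S1_S2. Lag3 was closest to Cdc25c (r = 0.783), Sox12 (0.782) and Faah (0.769), with 0.399 to 0.696 within S3 and 0.569 to 0.836 within S1_S2. Ctla4 was closest to Mtr (r = 0.705), Wdr3 (0.690) and Pi4k2a (0.685), with 0.586 to 0.653 within S3 and 0.721 to 0.810 within S1_S2. Havcr2 was closest to Enho, Pde8b and Notum, with r between 0.708 and 0.736, from values below the controls.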

How the data were processed

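Per the submitters' processing notes, the authors made the deposited log2 values with RMA in Affymetrix Expression Console 1.1. RMA subtracts background, equalises the arrays' distributions and summarises the probes of a cluster, so levels near background are compressed. RNA was amplified with NuGEN kits, per the labels' protocols. The values, from 3.04 to 13.7, were used as deposited. The genome build of the array design is not stated.

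Of 28846 items, 6640 controls were left out and 22206 transcript clusters tested, of which 19572 carry 1 gene symbol. A symbol with more than 1 cluster was read from the one with the highest mean, and each receptor gene has 1. Models were fitted with limma 3.58.1 (lmFit, eBayes) in R 4.3.3, with 6 group means and a term for the set of title numbers, which left 18 residual degrees of freedom. Benjamini-Hochberg adjustment ran over all clusters of a comparison, with no minimum fold. The labels do not say what the title numbers mean.

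The bound for a group below its arrays' control medians is the brighter group's mean minus the mean, per array of the dimmer group, of the higher of the control median and the cluster's own value. From each pathway list up to 3 called genes with the largest difference were named, and for each receptor the 3 clusters with the highest correlation. The receptor genes and lists were chosen with earlier results of these data known. Replicate arrays correlated at r of 0.981 to 0.993 across clusters. The fit was tested on simulated data. Figures were drawn with matplotlib 3.10.9.

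The alternatives left out the term for title numbers or made it random, used 1 set, only the groups compared, renormalised, centred or weighted arrays, brighter clusters, a trended robust variance, a sex term or only arrays with Y-linked signal, and left out each array.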

Additional observations from a re-analysis of the deposited data

Results flagged for a closer look

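Single arrays stood apart from their group for 4 of 32 pairs of receptor gene and group with 4 to 10 arrays, by the gap to the nearest array relative to the group's range. Chance alone gives about 1 in 20. Pdcd1 read 10.07 in Mst1KO S1_S2 replicate 3, above the other 3 arrays at 9.85 to 9.86, and 7.64 in Mst1KO S3 replicate 3, below the others at 8.45 to 8.71. Btla read 8.26 in Mst1KO S3 replicate 4, above the others at 7.95 to 8.01. Havcr2 read 4.87 in Mst1KO S1_S2 replicate 4, above the others at 4.58 to 4.62, all below the negative controls. Each of these 4 readings is on a different one of the 4 arrays that lacked Y-linked signal, and whether the 2 facts are linked was not tested.

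For Ctla4 and Btla every Mst1KO array lay on one side of the mean of the first-set WT arrays at S3 and on the other side at S1_S2. Ctla4 was lower in Mst1KO at S3 and higher at S1_S2, and the difference of the stage differences was -0.98 (limma adjusted p = 0.39). Btla was higher in Mst1KO at S3 and lower at S1_S2, with 0.36 (limma adjusted p = 0.48). Neither passed the test of the difference. How many of all clusters show such a change of side was not counted. The Ctla4 values of Mst1KO S3 and of the first-set WT S1_S2 arrays were all below the controls. Against the mean of all WT S1_S2 arrays, 6.53 for Ctla4 and 8.74 for Btla, the pattern did not hold. Mst1KO S1_S2 replicates 1 and 3 read 6.38 and 6.51 for Ctla4, and replicate 4 read 8.79 for Btla.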

How the results depend on the processing

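Cd160 in Mst1KO S3 passed in all settings and with any 1 array left out (-0.75 to -0.62). Of 609 receptor differences under other settings 578 kept their direction and side of the threshold, 11 lost their call, 7 gained one and 13 changed sign; with 1 array left out these were 612, 8, 3 and 17 of 640.

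Receptors called in Mst1KO S1_S2 against WT were 1, and 0 within the first set of title numbers, with only the groups compared, after quantile normalization, with a sex term and with Y-linked signal only. Those in Mst1KO S3 against WT were 2, and 1 with only the groups compared and with Y-linked signal only. Between the Mst1KO stages they were 3, then 5 with only the groups compared and with array weights, and 1 with Y-linked signal only. For the dKOMst S3 array 2 lay outside WT, and 1 with all 7 WT S3 arrays. Leaving out 1 array gave 0 to 1, 2 to 3, 3 to 4 and 2 to 5 for these, 5 to 6 between the WT stages, and 0 to 0 for dKOMst S1_S2 against WT and against Mst1KO and for the difference of stage differences.

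Signs turned only for differences that did not pass. Lag3 in Mst1KO S3 was 0.026 after quantile normalization, 0.018 centred, 0.0052 with array weights and 0.0035 with Y-linked signal only, and in Mst1KO S1_S2 0.0099 within the first set and 0.0099 with only the groups compared. Lag3's difference of stage differences was -0.13 within the first set. Ctla4 between the WT stages was -0.22 within the second set. Havcr2 in Mst1KO S1_S2 was 0.031 with no term for title numbers. With Y-linked signal only, Cd96 in dKOMst against Mst1KO was 0.011, the difference of stage differences 0.14 for Pdcd1 and 0.028 for Havcr2, and Havcr2 between the Mst1KO stages 0.11. With 1 array left out, Pdcd1 (-0.26 to 0.13) in the difference of stage differences, Havcr2 (-0.12 to 0.0098) between the Mst1KO stages, Lag3 (-0.090 to 0.10) in Mst1KO S3, Ctla4 (-0.0023 to 0.26) between the WT stages, Cd160 (-0.056 to 0.14), Lag3 (-0.048 to 0.52) and Btla (-0.20 to 0.46) in dKOMst S1_S2 against WT, and Btla (-0.063 to 0.60) in dKOMst against Mst1KO changed sign. The Havcr2 values are between groups below the controls. The cause was not tested.

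Clusters called over the settings numbered 475 to 1662 (1415 as reported) in Mst1KO S3 against WT, 23 to 151 (116) in Mst1KO S1_S2, 60 to 343 (205) in dKOMst S1_S2, 7 to 195 (38) in dKOMst against Mst1KO, 0 to 55 (35) in the difference of stage differences, 1904 to 3852 (3760) between the WT stages and 953 to 3107 (2266) between the Mst1KO stages. Of 46 pathway differences named 29 passed in all settings and with any 1 array left out, and 0 changed sign. These settings for pathway genes were chosen after seeing the data. Of the brighter clusters 15417 were kept, with 7 of 8 receptors. No other cluster of a receptor exists to be tried. No paired analysis was possible because the labels give no replicate numbers shared by the groups. Signal over background limits Tigit, Ctla4 and Havcr2.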
